A study of Mus musculus with 85 samples.

Results

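Pericytes sorted from embryonic mouse brain were compared between libraries labelled Kansl2 nKO, a neural knockout of Kansl2, and libraries labelled Cre control. The comparison holds the 7 libraries of a single deposited table, 3 labelled Kansl2 nKO (K2_328, K2_330 and K2_338) and 4 labelled Cre control (Cre_134, Cre_139, Cre_141 and Cre_142), out of 85 samples and 64 RNA sequencing libraries in the series. Per the labels, the tissue was brain at E14.5 (the embryonic day), the deletion was driven by Nestin Cre, and pericytes were isolated by fluorescence-activated sorting with a technique the labels call EMBRACE. The control libraries carry Cre. The labels name no strain or floxed control and do not say that the libraries came from separate animals, so p-values measure the spread between these samples, which may be technical. Nestin Cre is known as a driver in neural progenitors, and whether the sorted pericytes themselves carried the deletion is not stated.

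Pericytes are mural cells that wrap the capillaries of the brain, lie in the basement membrane they share with endothelial cells, and are known for stabilising young vessels and for the blood-brain barrier. KANSL2 is a subunit of the NSL complex, which carries the histone acetyltransferase MOF (encoded by Kat8) and is known for acetylating histone H4 at the promoters of widely expressed genes. Pericytes also respond to danger signals: Toll-like and cytokine receptors release the NF-kB transcription factors from their inhibitors, and the cells then make chemokines and adhesion molecules that attract leukocytes.

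Values are the authors' normalized counts, that is, reads per gene divided by a size factor of the library. The Cre libraries held 3879869 to 5705548 reads and the Kansl2 libraries 2357456 to 3605002, so low genes are measured less well in the latter. The mean correlation of a library with the others of its group was 0.887 to 0.904 in Cre and 0.834 to 0.861 in Kansl2. Library K2_328 had the lowest value, 0.834, the largest share of reads from mitochondrial genes (7.84%, against 4.41% to 5.88% in Cre) and the largest share from its 10 most abundant genes (18.4%, against 12.6% to 14.1% in Cre). Xist and Ddx3y marked Cre_141, K2_328 and K2_338 as female and the others as male.

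The targeted gene was not lower in the libraries labelled Kansl2 nKO. Kansl2 stood at 138, 144, 141.8 and 98.9 normalized counts in the Cre libraries and 121, 144 and 144 in the Kansl2 libraries. The groups overlapped, and the log2 fold change, always Kansl2 minus Cre and on the scale of log2(normalized count + 1), was 0.07 ± 0.25 (SE, adjusted p = 0.906) by limma. Total reads of a gene can hide a deletion of few exons, so every direction below rests on the labels. Kat8, which encodes MOF, stood at 0.20 ± 0.56 (SE, adjusted p = 0.882) and Kansl3, another NSL subunit, at 0.41 ± 0.25 (SE, adjusted p = 0.401). None of the 9 NSL complex genes passed. The threshold throughout is an adjusted p below 0.05.

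Pericyte markers were abundant in both groups, and 19 of 20 did not pass. In 4 of the 20 every Kansl2 library lay above every Cre library, against 8.41% of all genes. In 3 every Kansl2 library lay below, against 8.05%. Vtn was among those below (-0.48 ± 0.14 (SE, adjusted p = 0.0966)) and Mcam among those above (0.45 ± 0.13 (SE, adjusted p = 0.0979)), by limma. Rgs5, a pericyte signalling regulator and the most abundant marker of the list, stood at 24028, 26881, 22525 and 19701 normalized counts in the Cre libraries and 21655, 22237 and 21594 in the Kansl2 libraries. Those groups overlapped (-0.08 ± 0.10 (SE, adjusted p = 0.704)). The 20 pericyte markers together took 1.35% to 1.71% of reads in Cre and 1.36% to 1.42% in Kansl2. The 1 that passed was Higd1b, a mitochondrial protein gene, at 929, 873, 739.5 and 661 normalized counts in the Cre libraries and 503, 355 and 308 in the Kansl2 libraries. It was lower in each Kansl2 library than in any Cre library (-1.06 ± 0.19 (SE, adjusted p = 0.0103)). The receptor gene Pdgfrb, which pericytes need for recruitment to vessels, ranged from 2810 to 3467 in Cre and 3558 to 4441 in Kansl2 and did not pass (0.34 ± 0.12 (SE, adjusted p = 0.15)).

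Of 14402 genes with a mean of at least 10 normalized counts, 137 rose (0.951%) and 181 fell (1.26%) in the Kansl2 libraries, 318 in all. Of these, 84 rose and 144 fell by more than 1 on the log2 scale. The groups did not overlap in 1211 genes that were higher in Kansl2 (8.41%) and 1160 that were lower (8.05%). The median log2 fold change over all tested genes was -0.04, and 47.2% of them were above 0. The counts changed when 1 library was left out. Without Cre_134, 64 rose and 83 fell, without Cre_139, 94 and 109, without Cre_141, 73 and 66, and without Cre_142, 58 and 52. Without K2_330 the counts were 57 and 148, without K2_338 they were 60 and 123, and without K2_328 they were 115 and 238. The plot of gene lists shows where the passing genes lay. The lists were chosen with earlier results of these data known, so their counts beside those of all genes only describe.

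**Figure D1:**
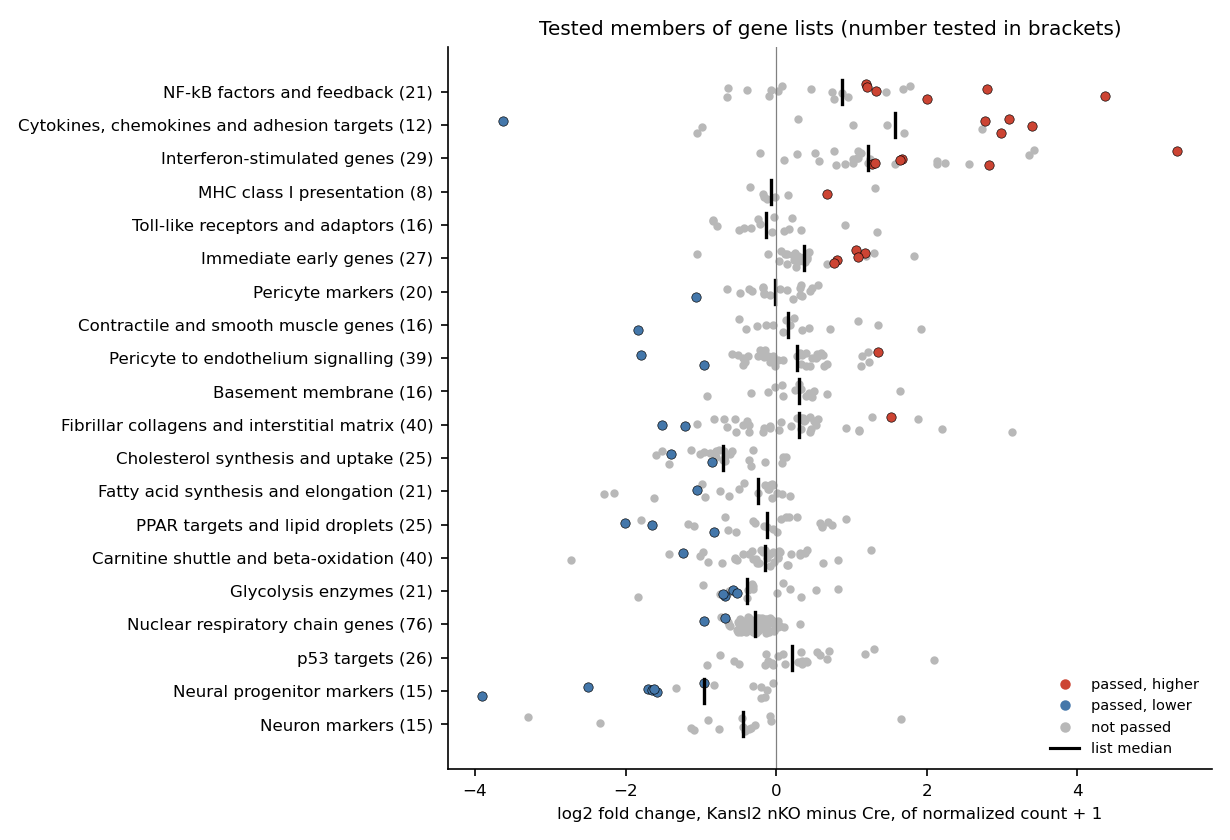
Log2 fold change (x axis, Kansl2 nKO minus Cre, normalized count + 1) of each tested member of 20 gene lists (y axis, number tested in brackets), with members that passed in colour and the list median as a bar. Passing members of the NF-kB, interferon and immediate early lists lie right of 0, those of the sterol, glycolysis and neural progenitor lists left of 0.

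Of the 10 largest rises, 6 (Casp4, Icam1, Cxcl1, Gbp7, Relb and Ccl2) were in genes known from inflammation or interferon defence. NF-kB factors and their feedback inhibitors rose in 6 of 21 tested, with none lower, against 0.951% of all genes higher, and the list's median log2 fold change was 0.88. Of 37 chemokine, cytokine and adhesion genes only 12 were abundant enough to test. Of these 4 rose and 1 fell, with a median of 1.58. Interferon-stimulated genes rose in 6 of 29 tested, out of 35, with none lower, and 28 of the 29 were above 0 (median 1.22). The minimum was a mean over all 7 libraries, so a gene could reach it through the Kansl2 libraries alone. Cxcl10 (mean 3.9 in Cre and 50.6 in Kansl2) and Ifit1 (0.212 and 55.4) did so, which tilts these shares and medians upward. Bcl3 of the NF-kB list, with a mean below 50 over the 7 libraries, was also low in Cre. The 250 bases before the start of some genes of these lists are printed here because the genes moved together. Matches to the NF-kB binding consensus (kappaB, searched on both strands) are in capitals. Overlapping matches were counted separately. Sequences are RefSeq's on GRCm38.p6, read in the direction of the gene.
Cxcl1 (chr5:90890995-90891244, + strand): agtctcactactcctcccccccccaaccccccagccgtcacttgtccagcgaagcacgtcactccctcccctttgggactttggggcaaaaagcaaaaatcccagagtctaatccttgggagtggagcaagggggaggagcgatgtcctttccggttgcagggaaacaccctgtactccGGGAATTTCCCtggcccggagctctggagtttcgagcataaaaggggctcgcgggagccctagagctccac
Nfkbia (chr12:55492648-55492897, - strand): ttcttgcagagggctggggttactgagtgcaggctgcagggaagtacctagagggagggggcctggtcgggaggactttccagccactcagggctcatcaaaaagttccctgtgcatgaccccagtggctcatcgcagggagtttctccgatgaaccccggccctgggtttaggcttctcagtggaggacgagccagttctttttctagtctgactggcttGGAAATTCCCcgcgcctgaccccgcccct
Cxcl10 (chr5:92348890-92349139, - strand): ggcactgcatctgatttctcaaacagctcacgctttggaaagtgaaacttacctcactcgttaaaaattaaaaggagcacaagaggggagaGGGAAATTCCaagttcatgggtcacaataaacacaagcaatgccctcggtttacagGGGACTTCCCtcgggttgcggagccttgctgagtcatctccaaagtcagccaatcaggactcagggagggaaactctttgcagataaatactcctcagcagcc
Of the 10 genes of the NF-kB and chemokine lists that rose, 7 had such a window, and 4 of these (Cxcl1, Cxcl10, Nfkb2 and Nfkbia) held a match in at least 1 window. The windows of Icam1, Bcl3 and Birc3 held none. Among 32851 windows of RefSeq genes, 3.90% held one, and among windows of tested genes 4.49%. These shares are per window, whereas a gene can have several windows, as Nfkb2 did. For the interferon genes the core TTTC-NN-TTTC of the interferon-stimulated response element was searched on both strands, and Ifit1 held it at 104 and 85 bases before the start.
Ifit1 (chr19:34640639-34640888, + strand): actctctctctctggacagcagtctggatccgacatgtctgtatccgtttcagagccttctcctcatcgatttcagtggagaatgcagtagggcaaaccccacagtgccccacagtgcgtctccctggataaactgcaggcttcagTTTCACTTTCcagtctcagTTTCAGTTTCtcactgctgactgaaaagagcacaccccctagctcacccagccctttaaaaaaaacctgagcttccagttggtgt
Among the 6 interferon genes that rose, 5 had a window, and Bst2, Gbp7 and Ifit1 held the core, which 2.98% of all windows held. A match describes letters only.

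Among chemokine and adhesion genes, Cxcl1, Ccl2, Icam1 and Cxcl10 rose. Cxcl1, which encodes a neutrophil attractant, stood at 27.5, 62.9, 48.4 and 48.5 normalized counts in the Cre libraries and 255, 407 and 454 in the Kansl2 libraries. Every Kansl2 library lay above every Cre library, and the log2 fold change was 2.98 ± 0.33 (SE, adjusted p = 0.00056). Ccl2, whose product attracts monocytes, had 43.1, 30.6, 20.5 and 36.6 normalized counts in the Cre libraries and 230.0, 255 and 188.3 in the Kansl2 libraries. These groups did not overlap either (2.78 ± 0.34 (SE, adjusted p = 0.000876)). Icam1, the endothelial and mural ligand that leukocytes bind, was at 26.9, 18.7, 49.2 and 46.7 normalized counts in the Cre libraries and 285, 401 and 208 in the Kansl2 libraries. Its lowest Kansl2 value was over 4 times its highest Cre value, at 3.09 ± 0.39 (SE, adjusted p = 0.000876). Cxcl10, a chemokine induced by interferon, was sparse at 1.25, 5.95, 4.92 and 3.66 against 31.4, 42.0 and 78.3. It rose by 3.40 ± 0.75 (SE, adjusted p = 0.0314). Il18, a cytokine that is matured by inflammatory caspases, was the member that fell, at 31.9, 37.4, 36.1 and 61.3 against 0, 15.3 and 1.26, with -3.63 ± 0.88 (SE, adjusted p = 0.0461). By edgeR no member of the list fell. Cxcl1, Ccl2 and Icam1 passed in each of 17 alternatives of processing, whereas Cxcl10 did not pass with no filter on low values, with sex as a covariate, or without Cre_134, Cre_141, Cre_142, K2_330 or K2_338.

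The NF-kB genes that rose encode inhibitors, subunits of the alternative branch and a cell death inhibitor. Nfkbia, which encodes the inhibitor IkB-alpha and is itself an NF-kB target, stood at 686, 929, 926 and 632 normalized counts in the Cre libraries and 1670, 2450 and 1826 in the Kansl2 libraries. The Kansl2 libraries were all higher, by 1.32 ± 0.18 (SE, adjusted p = 0.0011). Relb, a subunit of the alternative NF-kB pathway, was at 20.0, 15.3, 15.6 and 24.7 against 119.1, 141.2 and 145 (Cre against Kansl2, in the order of libraries above). The 2 groups lay far apart, with 2.80 ± 0.40 (SE, adjusted p = 0.00165). Nfkb2, which encodes the partner of RELB, stood at 46.2, 59.5, 43.5 and 83.3 against 182, 286 and 227, without overlap (2.002 ± 0.31 (SE, adjusted p = 0.00322)). Nfkbiz and Bcl3, which encode nuclear IkB proteins, rose by 1.20 and 4.37, and Birc3, an inhibitor of cell death downstream of TNF receptors, by 1.21. Bcl3 fell short of the mean of 50 required of the largest rises, and the size of its rise depends on the pseudocount. The number of the list's members that rose was 3 without Cre_142, K2_330 or K2_338.

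Upstream of NF-kB the receptors did not pass. Of 27 Toll-like receptors and adaptors 16 were abundant enough to test, none passed, and their median log2 fold change was -0.13. Tlr13, a receptor for bacterial ribosomal RNA, was nearest at 48.1, 53.5, 47.6 and 94.3 against 225, 123 and 121. It was higher in each Kansl2 library but missed the threshold (1.34 ± 0.35 (SE, adjusted p = 0.0617)). Tlr1, Tlr2 and Tlr5 to Tlr9 were below the minimum of 10, as were Cd14 and Lbp, which present lipopolysaccharide. Tlr4 varied within both groups, at 17.5, 54.4, 18.04 and 8.24 against 99.3, 52.2 and 10.1, with 0.92 ± 0.76 (SE, adjusted p = 0.547).

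Among interferon genes, Ifitm1 and Ifitm3, which encode membrane proteins that block virus entry, were the most abundant that rose. Ifitm1 stood at 189.9, 187, 102 and 136 normalized counts in the Cre libraries and 539, 421 and 457 in the Kansl2 libraries. Its groups were well apart (1.65 ± 0.24 (SE, adjusted p = 0.00189)). Ifitm3 stood at 901, 725, 674 and 501 against 2068, 1466 and 1485, again without overlap (1.27 ± 0.19 (SE, adjusted p = 0.00216)). Gbp7, a guanylate-binding protein of cell-autonomous defence, stood at 34.4, 20.4, 9.02 and 19.2 against 121, 166 and 135 and rose by 2.83 ± 0.46 (SE, adjusted p = 0.00478). Bst2, which tethers budding virus, rose by 1.31. Ifit1, which binds foreign RNA, had 1 read in all Cre libraries and 145 in the Kansl2 libraries, a ratio per read of 300.2 with a 95% counting interval of 53.03 to 11938. Its call was lost without K2_330 or K2_338. Of 8 genes of MHC class I presentation, B2m, the light chain, rose (495, 483, 448 and 411 against 723, 714 and 753, 0.67 ± 0.15 (SE, adjusted p = 0.0314)) and the other 7 did not pass. Over all genes tested 0.951% rose, and B2m lost its call in 8 of 17 alternatives.

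Casp4, the caspase that binds lipopolysaccharide in the cytosol and starts pyroptosis, had the largest log2 fold change among named genes. It had 1 read in the 4 Cre libraries together and 342 in the 3 Kansl2 libraries, with 0.625, 0, 0 and 0 against 67.8, 179 and 159 normalized counts. The ratio per read was 708 (95% counting interval 126 to 28047), and the fitted value of 6.80 ± 0.85 (SE, adjusted p = 0.000876) depends on the pseudocount. Intervals cover counting error only. Runx1, a transcription factor of blood and mesenchymal cells, stood at 16.2, 32.3, 12.3 and 9.16 normalized counts in the Cre libraries and 114, 175 and 225 in the Kansl2 libraries. All Kansl2 values were at least 3 times the highest Cre value (3.31 ± 0.48 (SE, adjusted p = 0.00183)). Rgs16, a regulator of G protein signalling, rose by 2.78 ± 0.44 (SE, adjusted p = 0.00342), Fbxo32, a ubiquitin ligase of muscle atrophy, by 2.32 ± 0.39 (SE, adjusted p = 0.00574), and Psd, an exchange factor for ARF6, by 2.28 ± 0.34 (SE, adjusted p = 0.00197).

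**Figure D2:**
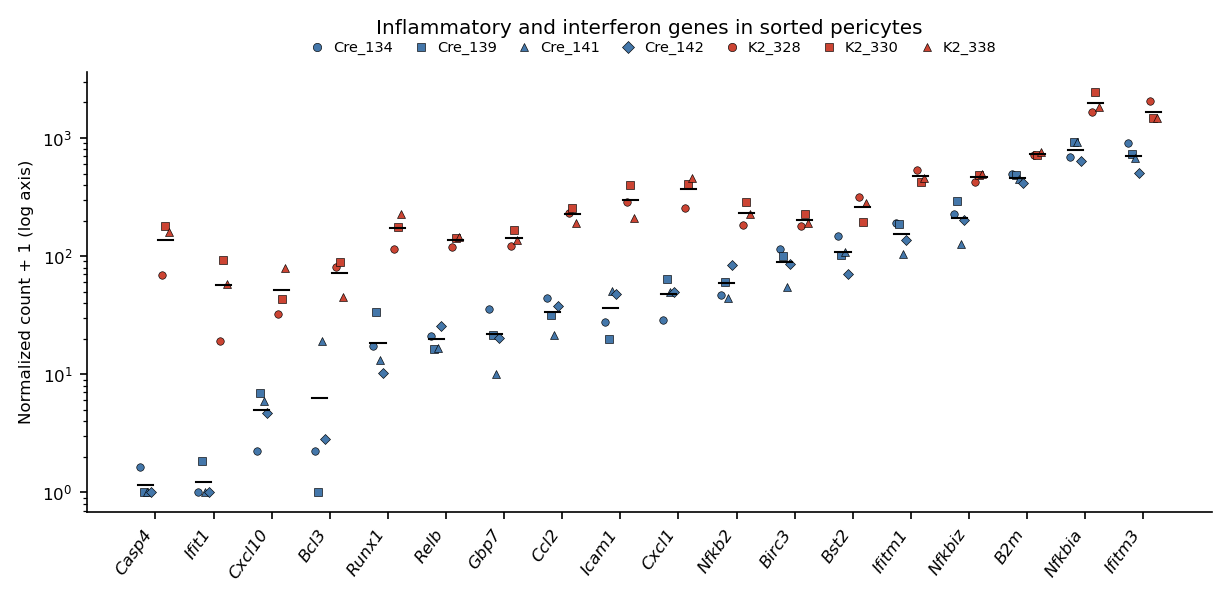
Normalized count + 1 (log y axis) of 18 inflammatory and interferon genes that passed (x axis), one symbol per library, with Cre in blue, Kansl2 nKO in red and the group mean as a bar. In each gene the 3 Kansl2 libraries lie above the 4 Cre libraries, from Casp4 near 0 in Cre to Ifitm3 at 1466 to 2068 in Kansl2.

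Beside these rises, the summed share of macrophage markers was low and differed between the groups. The 16 microglia and macrophage markers together took 0.0070% to 0.00979% of reads in Cre and 0.0107% to 0.0138% in Kansl2. The groups did not overlap. Only 4 of the 16, Csf1r, Cd68 and Mrc1 among them, reached the minimum for testing, all 4 were above 0 and none passed. Csf1r, the receptor for macrophage growth factor, stood at 73.7, 73.1, 87.7 and 89.7 against 159, 109 and 143 (0.74 ± 0.28 (SE, adjusted p = 0.18)). Defining markers were near 0 in both groups: Adgre1 and Trem2 had no read in any of the 7 libraries, which allows up to 0.111 CPM, and Ptprc, the pan-leukocyte CD45 gene, had at most 0.625 normalized counts in Cre and 1.26 in Kansl2. None of 10 neutrophil and monocyte markers was abundant enough to test, and their summed shares overlapped (0.000202% to 0.000309% in Cre and 0.00017% to 0.00117% in Kansl2). The part of these cells in the rises was not tested. Immediate early genes, which are known to respond to dissociation and sorting as well as to signals in tissue, also differed: together they took 0.92% to 1.17% of reads in Cre and 1.19% to 1.41% in Kansl2, without overlap. Their part in the NF-kB, chemokine and interferon rises was not tested. In a bulk sample fewer cells of a type and less RNA per cell cannot be told apart.

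Genes of neural progenitors were among those that fell. Radial glia, the stem cells of the embryonic brain, are known to touch vessels with their end-feet. Of 15 neural progenitor markers 7 fell, against 1.26% of all genes lower, and all 15 were below 0 (median log2 fold change -0.95). Together the 15 took 0.466% to 0.602% of reads in Cre and 0.247% to 0.311% in Kansl2. Hes5, a Notch target that keeps progenitors undifferentiated, stood at 601, 519, 603 and 770.0 normalized counts in the Cre libraries and 94.3, 73.7 and 183.2 in the Kansl2 libraries. The groups were far apart, with -2.50 ± 0.27 (SE, adjusted p = 0.00056). Fabp7, the brain lipid-binding protein of radial glia, was the most abundant at 5289, 5293, 8016 and 7043 normalized counts in the Cre libraries and 3008, 1316 and 2072 in the Kansl2 libraries. Its highest Kansl2 value, in K2_328, was still below the lowest Cre value (-1.64 ± 0.22 (SE, adjusted p = 0.00113)). Ptprz1, a receptor phosphatase of glia, stood at 976, 939, 1101 and 1676 against 409, 337.6 and 369, without overlap (-1.62 ± 0.19 (SE, adjusted p = 0.000629)). Dbi, an acyl-CoA-binding protein, fell by 1.58 ± 0.19 (SE, adjusted p = 0.000876) on the log2 scale. Sox2, a transcription factor of progenitors, stood at -1.71 and Slc1a3, the glial glutamate transporter, at -0.95, and both passed. The number of members that fell was 4 without Cre_141 or Cre_142.

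The 10 largest falls also included genes known from glia and neurons. Aldh1l1, the folate enzyme used as an astrocyte marker, stood at 256.7, 232, 229 and 452 normalized counts in the Cre libraries and 54.6, 45.0 and 49.3 in the Kansl2 libraries. The 3 Kansl2 values lay close together and below all Cre values (-2.48 ± 0.28 (SE, adjusted p = 0.00056)). Nell2, a secreted protein of neurons, was at 78.7, 109, 113 and 88.8 against 9.93, 8.19 and 12.6. It fell in each Kansl2 library (-3.13 ± 0.43 (SE, adjusted p = 0.00135)). Mt3, the brain metallothionein, was at 295, 249, 462 and 420.2 against 111, 36.8 and 31.6, highest within its group in K2_328 (-2.75 ± 0.38 (SE, adjusted p = 0.00137)). Veph1 stood at 62.5, 96.0, 117.2 and 107 against 13.2, 3.07 and 7.58 (-3.57 ± 0.53 (SE, adjusted p = 0.00207)) and Fhl1, a LIM-domain protein gene, at 196.8, 146, 155 and 209.7 against 26.5, 55.3 and 18.95 (-2.49 ± 0.37 (SE, adjusted p = 0.00207)). Minpp1, an inositol phosphate phosphatase, was at 104, 155, 116 and 101 against 8.27, 29.7 and 32.9, without overlap (-2.48 ± 0.46 (SE, adjusted p = 0.0132)). Nkain4 (-3.78), Luzp2 (-2.77) and Rnf182 (-2.67) completed the 10, and each lost its call in 5 to 9 of 17 alternatives.

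**Figure D3:**
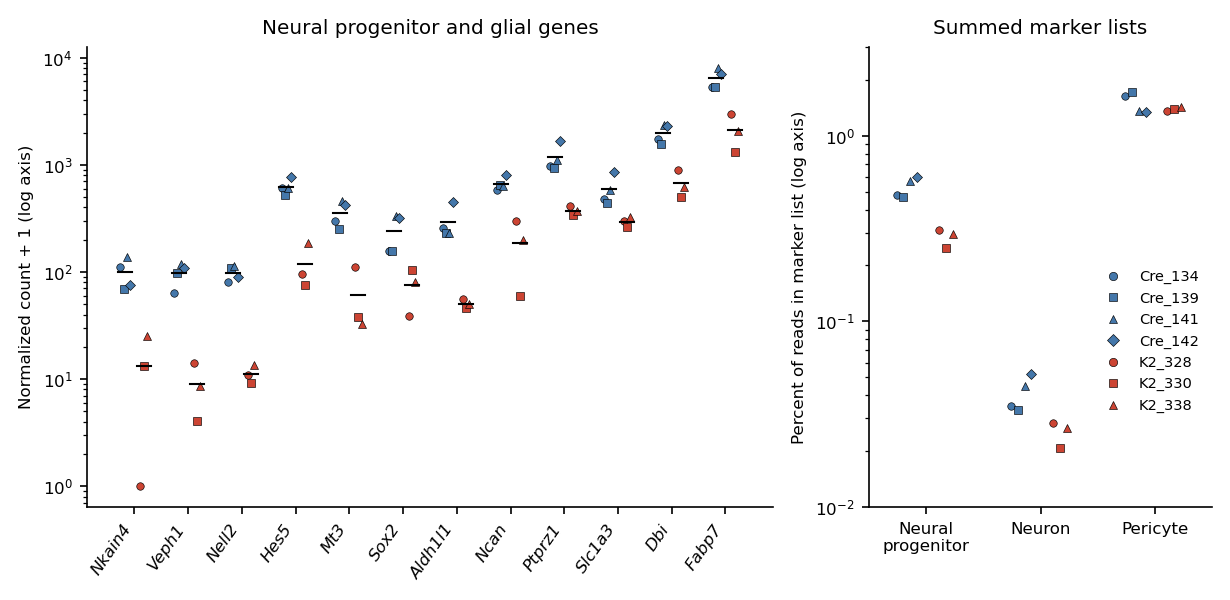
Left, normalized count + 1 (log y axis) of 12 neural progenitor and glial genes that passed, one symbol per library, Cre in blue, Kansl2 nKO in red, bars for group means; right, percent of reads (log y axis) in 3 marker lists. Neural progenitor shares are 0.466% to 0.602% in Cre and 0.247% to 0.311% in Kansl2, while pericyte shares overlap.

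Neuronal markers lay the same way without a call. None of 15 tested passed, 14 were below 0 (median -0.45), and their summed share was 0.0335% to 0.0518% in Cre and 0.0207% to 0.0284% in Kansl2. Endothelial markers took 0.0629% to 0.0824% in Cre and 0.0611% to 0.0811% in Kansl2, and none of 11 passed. None of 12 meningeal fibroblast markers, 8 erythroid markers, 3 choroid plexus markers or the 1 testable oligodendrocyte precursor marker passed. Reads of neural progenitor markers were thus present in both groups and fewer in the libraries labelled Kansl2 nKO. Some of these markers, such as Nes and Vim, are known in pericytes as well. The part of neural RNA in the other falls was not tested.

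Most sterol genes were below 0, and few passed. Of 25 genes of cholesterol synthesis and uptake, 22 were below 0 with a median of -0.70. Of the 25, 2 passed, both lower, against 1.26% of all genes lower. Hmgcs1, which makes HMG-CoA at the entry to the pathway, stood at 1158, 1076, 1338 and 1274 normalized counts in the Cre libraries and 376, 482 and 532 in the Kansl2 libraries. No Kansl2 library reached the lowest Cre value, 1076, and the log2 fold change was -1.40 ± 0.16 (SE, adjusted p = 0.00056). The 250 bases before its start are shown because it is the sterol gene with the smallest adjusted p, with the sterol response element core CACCCCAC (both strands) in capitals.
Hmgcs1 (chr13:119690101-119690350, + strand): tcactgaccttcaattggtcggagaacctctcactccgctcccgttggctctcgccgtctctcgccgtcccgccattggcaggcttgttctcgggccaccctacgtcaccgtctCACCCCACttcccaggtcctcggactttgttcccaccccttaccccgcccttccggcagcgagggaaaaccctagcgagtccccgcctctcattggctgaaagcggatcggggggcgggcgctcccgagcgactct
This core, 136 bases before the start, was held by 2.58% of all windows. Stard4, a sterol carrier, stood at 347, 264, 300.1 and 411 against 183.7, 183.2 and 171.8 (-0.86 ± 0.21 (SE, adjusted p = 0.0431)) and lost its call in 8 of 17 alternatives.

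Few fatty acid genes passed, beside 1.26% of all genes that fell. Scd2, the desaturase of the developing brain, stood at 1184, 1132, 889 and 1107 normalized counts in the Cre libraries and 493, 528 and 526 in the Kansl2 libraries. The groups did not overlap (-1.05 ± 0.15 (SE, adjusted p = 0.00137)), and the other 20 tested genes of fatty acid synthesis did not pass, 18 of the 21 being below 0. Scp2, the peroxisomal thiolase and sterol carrier, was the 1 of 40 carnitine shuttle and beta-oxidation genes that passed, at 347, 327.1, 379.6 and 348.8 against 164, 192 and 102 (-1.24 ± 0.23 (SE, adjusted p = 0.0127)). Among 25 PPAR targets and lipid droplet genes 3 fell: Acot1, an acyl-CoA thioesterase, at 272, 199.7, 362 and 409 against 59.6, 61.4 and 109 (-2.01 ± 0.30 (SE, adjusted p = 0.00207)), Plin3, a droplet coat protein, at 582, 502, 549 and 458 against 329, 286 and 264 (-0.83 ± 0.17 (SE, adjusted p = 0.0213)), and Fabp7, which is also on the neural progenitor list. Phgdh and Shmt2, enzymes of serine and glycine synthesis, fell by 1.29 ± 0.25 (SE, adjusted p = 0.0165) and 0.81 ± 0.19 (SE, adjusted p = 0.0433) on the log2 scale, and Phgdh is also known as a radial glia gene.

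Some glycolysis genes fell by small amounts. Of 21 tested 15 were below 0 (median -0.39) and 4 fell, against 1.26% of all genes lower. Eno1, an enolase, stood at 2216, 2023, 2130 and 1954 normalized counts in the Cre libraries and 1310, 1370 and 1502 in the Kansl2 libraries. The spread within each group was small and the groups did not overlap (-0.58 ± 0.12 (SE, adjusted p = 0.0199)). Pkm, pyruvate kinase, stood at 2745, 3061, 3121 and 3149 against 1926, 2281 and 2087 (-0.53 ± 0.11 (SE, adjusted p = 0.0263)), Ldhb, a lactate dehydrogenase subunit, at 695, 678, 764 and 582 against 372, 448 and 429.6 (-0.70 ± 0.16 (SE, adjusted p = 0.0336)), and Tpi1, triose phosphate isomerase, at 1062, 798, 915 and 798 against 654, 528 and 498 (-0.67 ± 0.16 (SE, adjusted p = 0.0417)). Of 76 nuclear respiratory chain genes 71 were below 0 with a median of -0.28, and 2 passed: Atp5d (-0.68 ± 0.15 (SE, adjusted p = 0.0314)) and Ndufs5 (-0.96 ± 0.23 (SE, adjusted p = 0.0477)). Over all genes tested 1.26% fell and 47.2% were above 0. Of mitochondrially encoded transcripts 11 of 11 tested were above 0 (median 0.24) and none passed. The 13 of that list together took 3.33% to 4.76% of reads in Cre and 4.07% to 6.20% in Kansl2. These shares overlapped, and the highest was in K2_328. The calls in both lists were not stable. The number of glycolysis genes that fell was 0 without Cre_141 and 1 without each of Cre_134, Cre_139, Cre_142, K2_330 and K2_338. With sex as a covariate it was also 1. Atp5d lost its call in 7 of 17 alternatives. Ndufs5 lost its call in 12 of 17, among them edgeR, quantile scaling, array weights and sex as a covariate.

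**Figure D4:**
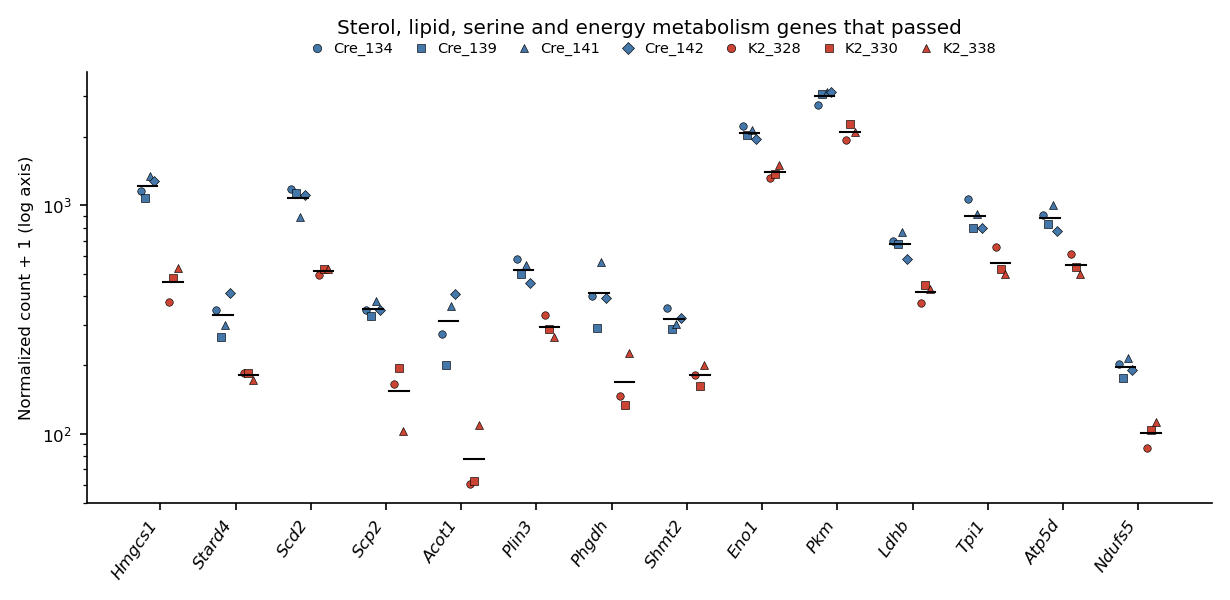
Normalized count + 1 (log y axis) of 14 sterol, lipid, serine and energy metabolism genes that fell (x axis), one symbol per library, Cre in blue, Kansl2 nKO in red, bars for group means. Hmgcs1 and Scd2 lie lower by -1.40 and -1.05 on the log2 scale, the glycolysis genes by less.

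Genes of signalling between pericytes and vessels, ligands and receptors alike, moved in both directions. Pdgfa, a ligand of the PDGF-alpha receptor, rose and stood at 135, 173.3, 195 and 107 against 404, 379 and 359 (1.35 ± 0.23 (SE, adjusted p = 0.00737)). Ptn, a heparin-binding growth factor that pericytes and glia secrete, was abundant at 3899, 3408, 3929 and 3527 normalized counts in the Cre libraries and 1828, 1829 and 2034 in the Kansl2 libraries. Its values were tight within each group and did not overlap (-0.96 ± 0.11 (SE, adjusted p = 0.00056)). S1pr1, the sphingosine-1-phosphate receptor of vessel stability, ranged from 117.4 to 281 in Cre and 43.0 to 44.7 in Kansl2, with Cre_141 the highest (-1.80 ± 0.34 (SE, adjusted p = 0.0144)). The other 36 of 39 tested genes of this list did not pass. Over all genes tested 0.951% rose and 1.26% fell. Ednrb, an endothelin receptor of mural cells and of glia, was the 1 of 16 contractile genes that passed, at 327.9, 386, 404 and 445 against 142.3, 66.5 and 133 (-1.84 ± 0.26 (SE, adjusted p = 0.00161)).

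In the matrix, none of 16 basement membrane genes passed. Of 40 genes of interstitial matrix Col16a1, a fibril-associated collagen, rose (54.97, 67.97, 57.4 and 61.3 against 208, 218 and 118, 1.52 ± 0.31 (SE, adjusted p = 0.0199)), while Tnc, a glycoprotein made by radial glia, fell (400.4, 528, 554 and 763 against 165, 142.2 and 291, -1.52 ± 0.26 (SE, adjusted p = 0.0067)), as did Col2a1 (-1.22 ± 0.27 (SE, adjusted p = 0.0328)). Among 17 proteases and inhibitors 3 rose. The shares of all genes tested to set beside these matrix lists are 0.951% higher and 1.26% lower. Adamts4, an aggrecanase, rose by 1.25 ± 0.29 (SE, adjusted p = 0.0378) and Mmp11, a stromelysin, by 0.67 ± 0.15 (SE, adjusted p = 0.0346), and both lost their call in at least 7 of 17 alternatives.

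Immediate early genes, which cells switch on within minutes of a stimulus, rose in 5 of 27 tested, against 0.951% of all genes higher, and 25 of 27 were above 0. The list was drawn up as a sign of dissociation and sort stress. Fosb, an AP-1 subunit, stood at 1103, 1313, 1007 and 1520 normalized counts in the Cre libraries and 3237, 2962 and 2177 in the Kansl2 libraries. The groups did not overlap (1.17 ± 0.17 (SE, adjusted p = 0.00157)). Klf4 (0.77 ± 0.14 (SE, adjusted p = 0.0138)), Klf2 (0.81 ± 0.19 (SE, adjusted p = 0.0364)), Egr2 (1.06 ± 0.21 (SE, adjusted p = 0.0199)) and Ier3 (1.09 ± 0.23 (SE, adjusted p = 0.0235)) were the others. The number of the list's members that rose was 1 without Cre_142 or K2_330 and 2 without Cre_141.

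Members of other stress programmes seldom passed. None of 26 p53 targets passed, although Trp53 itself was higher in each Kansl2 library (291 to 335.4 in Cre and 435 to 631 in Kansl2, 0.70 ± 0.18 (SE, adjusted p = 0.0581)). Of 23 genes of the integrated stress response Ddit3, which encodes CHOP, rose (0.82 ± 0.19 (SE, adjusted p = 0.0392)) but lost its call in 9 of 17 alternatives, and Phgdh and Shmt2 fell. Over all genes tested 0.951% rose and 1.26% fell. No member of the unfolded protein, heat shock, NRF2, hypoxia or cell cycle lists passed, and none of 86 ribosomal protein genes.

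Among growth and imprinted genes 2 rose and 1 fell, of 19 tested, against 0.951% and 1.26% of all genes. Meg3, the maternally expressed long noncoding RNA of the Dlk1-Dio3 locus, stood at 13008, 13086, 11126 and 12668 normalized counts in the Cre libraries and 19087, 25076 and 22125 in the Kansl2 libraries. Each Kansl2 library was above the Cre range (0.82 ± 0.11 (SE, adjusted p = 0.0011)). Rian and Mirg, noncoding RNAs of the same locus that were picked after their values were seen, rose by 0.93 ± 0.12 (SE, adjusted p = 0.0011) and 1.30 ± 0.18 (SE, adjusted p = 0.00135). Igfbp7, an insulin-like growth factor binding protein of vessels, rose and stood at 1229, 1453, 1136 and 1346 against 2815, 2156 and 2281 (0.90 ± 0.14 (SE, adjusted p = 0.00222)), and Igfbp5 fell (-1.12 ± 0.22 (SE, adjusted p = 0.0156)). The other 16 tested genes of this list did not pass.

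Pericytes from libraries labelled Kansl3 nKO (4) and Mof nKO (3) had the same 4 Cre libraries as controls, so their values are set side by side and were tested directly only between knockouts. All these values come from edgeR on whole reads, in 1 fit of 14 pericyte libraries. Between Kansl2 and Kansl3 libraries 1629 of 15998 genes passed (10.2%), with 819 higher (5.12%) and 810 lower (5.06%) in Kansl2. Between Kansl2 and Mof libraries 532 passed (3.33%), with 220 higher (1.38%) and 312 lower (1.95%). Leaving out 1 Kansl2 library lowered the first count to between 837 and 1028 and the second to between 229 and 311.

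Of 12 chemokine, cytokine and adhesion genes, 1 differed between Kansl2 and Kansl3 and 2 between Kansl2 and Mof. Over all genes tested 10.2% and 3.33% differed. Vcam1, which encodes an adhesion molecule that leukocytes bind, was lower in Kansl2 than in Kansl3 (-2.25 ± 0.53 (SE, adjusted p = 0.011)) and than in Mof (-2.48 ± 0.55 (SE, adjusted p = 0.0166)). Ccl3, a chemokine gene, was higher in Kansl2 than in Mof (3.76 ± 0.73 (SE, adjusted p = 0.00779)). For Cxcl1 the log2 fold changes against Cre were 3.005 in Kansl2, 2.72 in Kansl3 and 2.69 in Mof. Its Kansl2 minus Kansl3 difference of 0.28 ± 0.31 (SE, adjusted p = 0.605) and its Kansl2 minus Mof difference of 0.31 ± 0.34 (SE, adjusted p = 0.675) did not pass. For Ccl2 they were 2.77 in Kansl2, 2.71 in Kansl3 and 2.55 in Mof. Kansl2 minus Kansl3 was 0.06 ± 0.30 (SE, adjusted p = 0.924) and Kansl2 minus Mof 0.22 ± 0.32 (SE, adjusted p = 0.78), neither of which passed. A p above the threshold does not show that the knockouts act alike. Relb and Nfkb2 were higher in Kansl2 than in Kansl3, by 1.74 ± 0.51 (SE, adjusted p = 0.0352) and 1.35 ± 0.33 (SE, adjusted p = 0.0143). Casp4 was higher in Kansl2 than in Kansl3 by 2.14 ± 0.50 (SE, adjusted p = 0.0109). The interferon genes Gbp7 and Ifitm1 were higher in Kansl2 than in Mof, by 3.14 ± 0.52 (SE, adjusted p = 0.00252) and 1.32 ± 0.35 (SE, adjusted p = 0.0396), and none of 29 interferon genes differed between Kansl2 and Kansl3.

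The neural progenitor genes did differ. Of 15 markers 9 were lower in Kansl2 than in Kansl3 and 1 higher, and 9 were lower than in Mof with none higher. Over all genes tested 5.06% were lower than in Kansl3 and 5.12% higher, and 1.95% were lower than in Mof and 1.38% higher. Hes5 stood at -2.40 in Kansl2, 0.61 in Kansl3 and 0.33 in Mof against Cre, and Kansl2 lay below Kansl3 by -3.02 ± 0.34 (SE, adjusted p = 5.29e-05) and below Mof by -2.73 ± 0.34 (SE, adjusted p = 0.000458). Aldh1l1 stood at -2.55 in Kansl2, 0.72 in Kansl3 and 0.26 in Mof, and Kansl2 minus Mof was -2.81 ± 0.38 (SE, adjusted p = 0.000834). Sterol genes differed too, with 5 of 25 lower than in Kansl3 and 6 lower than in Mof, and none higher. Hmgcs1 stood at -1.38 in Kansl2, 0.29 in Kansl3 and 0.46 in Mof, with Kansl2 minus Kansl3 at -1.67 ± 0.27 (SE, adjusted p = 0.00095) and Kansl2 minus Mof at -1.84 ± 0.28 (SE, adjusted p = 0.00148). Glycolysis genes were lower than in Kansl3 in 11 of 21 and higher in 1, and lower than in Mof in 3. The neural marker difference accompanies both, and its part in them was not tested.

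Some genes were higher in Kansl2 libraries than in both other knockouts. Fosb stood at 1.18 in Kansl2, -0.44 in Kansl3 and -0.02 in Mof against Cre, with Kansl2 minus Kansl3 at 1.62 ± 0.17 (SE, adjusted p = 3.07e-05) and Kansl2 minus Mof at 1.20 ± 0.18 (SE, adjusted p = 0.00147). Meg3 stood at 0.83 in Kansl2, -0.34 in Kansl3 and 0.03 in Mof, with differences of 1.17 ± 0.12 (SE, adjusted p = 3.07e-05) and 0.80 ± 0.13 (SE, adjusted p = 0.00248). Of 16 basement membrane genes 7 were higher than in Kansl3 and 6 higher than in Mof, though none of the 16 passed in Kansl2 against Cre. Over all genes tested 5.12% were higher than in Kansl3 and 1.38% higher than in Mof. Col4a1, the main collagen of that layer, stood at 0.48 in Kansl2, -0.98 in Kansl3 and -0.60 in Mof against Cre, and Kansl2 exceeded Kansl3 by 1.46 ± 0.18 (SE, adjusted p = 0.000123). Of 20 pericyte markers 8 were higher than in Kansl3 and 5 higher than in Mof. Against Cre none of these 20 rose in Kansl2 and 1 fell, with a median of -0.02 by limma. Neural progenitor markers lay the other way in the contrasts with Kansl3 and Mof (medians -1.74 and -1.77), and their part here was not tested.

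**Figure D5:**
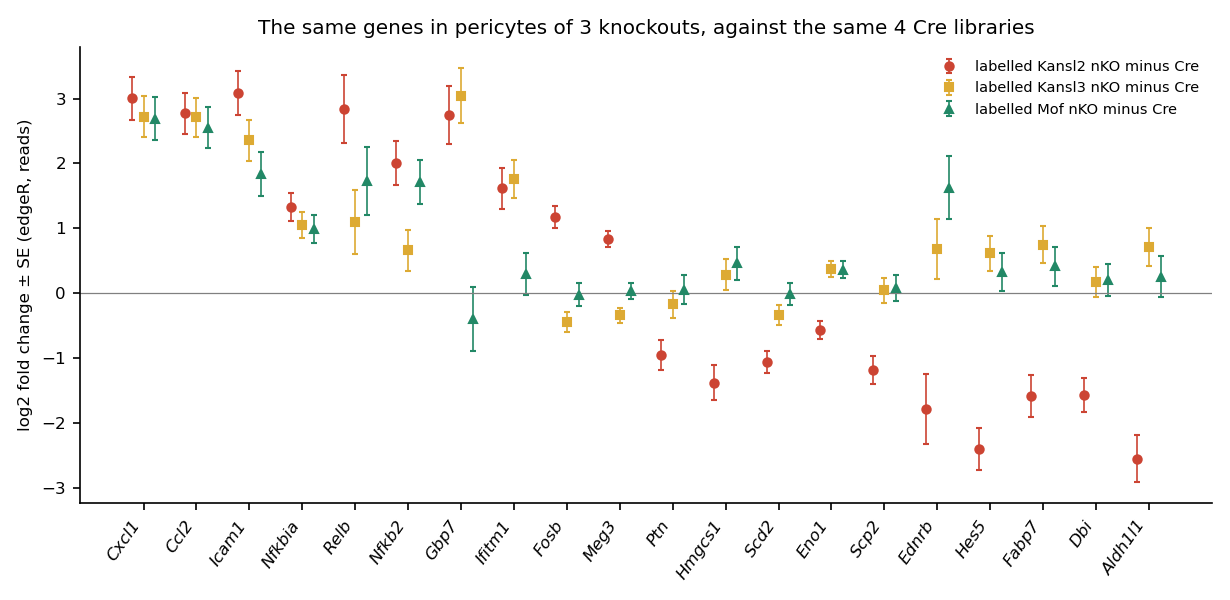
Log2 fold change against the same 4 Cre libraries (y axis, edgeR on reads, bars are 1 SE) of 20 genes (x axis) in pericytes labelled Kansl2, Kansl3 or Mof nKO. Cxcl1 and Ccl2 lie between 2.55 and 3.005 in all 3, while Hes5 is -2.40 in Kansl2 and above 0 in the other 2.

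The Kansl2 effect was also set against that in sorted endothelial cells, which have their own 4 Cre and 3 Kansl2 libraries. By edgeR's interaction test 4 of 18782 genes differed (0.0213%), and 1429 had an unadjusted p under 0.05. The 4 were Nos3, Nupr1, Zic1 and Ncam1, and none of the genes described above was among them. In 1 endothelial Cre library mitochondrial genes took 7.69% of reads and the 10 most abundant genes 12.2%, against 1.11% to 2.18% and 3.82% to 4.83% in the other 3. Without it 10 genes differed, these 4 among them, a fit added after the data were seen. Sfrp2, Igf2, Cd248 and 3 genes without a standard name were the others. Hes5 stood at -2.40 in pericytes and -4.07 in endothelial cells, with a difference of 1.64 ± 0.76 (SE, adjusted p = 0.638). Ccl2 stood at 2.77 and 2.85, with a difference of -0.10 ± 0.77 (SE, adjusted p = 1). Hmgcs1 stood at -1.38 and -0.05, and its difference of -1.35 ± 0.32 (SE, adjusted p = 0.291) did not pass.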

How the data were processed

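RNA from sorted pericytes was taken with a miRNeasy Micro kit, amplified with SMART-Seq v4 and made into Nextera XT libraries, sequenced on a HiSeq 3000 or a NextSeq 500, per the labels' protocols. The tools STAR, featureCounts and DESeq2 and the build mm10 are named, without roles, per the submitters' processing notes, and their versions were not given in the sources used here. For the comparison the authors deposited a signal, counts divided by a size factor per library, and a table of log2 fold changes with an adjusted p-value per gene, which called 350 genes higher and 420 lower.

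Dividing by the value of 1 read gave whole reads for 100% of values (tolerance 0.01). The deposited values were tested as log2(value + 1) with limma 3.58.1 (trend) in genes with a mean of at least 10, with Benjamini-Hochberg adjustment. On recovered reads edgeR 4.0.16 (quasi-likelihood, TMM) called 283 and DESeq2 1.42.0 called 794. Contrasts between knockouts and cell types used edgeR. R was 4.3.3. Scripts were tested on simulated data.

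The members and lists were chosen with earlier results of these data known. Named genes were Kat8, Kansl2, Kansl3, the 10 largest rises and falls among genes that passed with a mean of at least 50 and no overlap (without sex-linked, predicted and unnamed genes), and up to 4 members per list with the smallest p. Some further members and genes are named after their values were seen, and some that the rule names are not reported here. Alternatives varied test, scaling, pseudocount, filter, weights, sex and libraries. No pair of replicates was a duplicate. Chromatin samples and other cell types were not used here beyond sorted endothelial cells.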

Additional observations from a re-analysis of the deposited data

Results flagged for a closer look

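In the 4 Cre libraries 1 value stood far from the other 3 in 12 of 171 sets examined, and chance gives about 1 in 20. Cre_142 was the highest for Aldh1l1 (452 normalized counts), Kat8 (137) and Tlr13 (94.3) and the lowest for Kansl2 (98.9) and Kcnj8 (3722). Cre_134 was the highest for Casp4 (0.625), Traf6 (169) and Lum (58.7). Cre_141 was the highest for S1pr1 (281), the lowest for Gsta4 (13.9) and the lowest in mean correlation with its group (0.887). Cre_139 was the highest for Ifit1 (0.85, which is 1 read).

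The Kansl2 effect differed between pericytes and endothelial cells in 4 genes by edgeR's interaction test. Nos3, the endothelial nitric oxide synthase, had 2.85 to 5.29 CPM in the Cre pericytes and no read in the 3 Kansl2 pericyte libraries, which allows up to 0.341 over the group, at a fitted difference of -8.27 that is no bound. In endothelial cells Nos3 stood at 642 to 692 in Cre and 647 to 828 in Kansl2. Nupr1, a stress-induced chromatin protein gene, had no read in the 4 endothelial Cre libraries (up to 0.0514 allowed) and 3.72 to 10.7 in Kansl2, against 55.3 to 84.8 and 83.7 to 91.4 in pericytes, at a fitted difference of -8.48. Zic1, a pericyte marker, stood at 6.93 to 9.38 in endothelial Cre and 0.202 to 0.732 in endothelial Kansl2, with 113 to 192 over all 7 pericyte libraries (difference 4.0). Ncam1, a cell adhesion gene, stood at 57.3 to 77.3 and 17.01 to 26.2 in endothelial cells and in pericytes at 659.8 to 722.6 in Cre and 811.5 to 843.7 in Kansl2 (difference 2.02).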

How the results depend on the processing

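The count of 318 genes stayed within 1.5 times under edgeR (283), TMM (317), quantile scaling (341), pseudocounts of 0.5 (301) and 5 (384), no filter (213), a minimum of 50 (389), array weights (410) and sex as a covariate (285). DESeq2 called 794, and 99 among list members. Leaving out 1 library gave 110 to 353, and 29 to 53 among list members. Leaving out 1 pericyte Kansl2 library gave 837 to 1028 for Kansl2 against Kansl3, 229 to 311 for Kansl2 against Mof and 4 to 5 for the interaction. The interaction gave 10 without 1 endothelial Cre library, an alternative chosen after seeing the data. With no filter Kansl2 against Mof gave 1011 and the interaction 18. The cause was not tested. Of 64 named genes that passed, 38 passed in every one of up to 17 alternatives that tested them, 26 did not in at least 1, and none reversed. Lost in over 5 alternatives were the calls of 14: Adamts4, Atp5d, B2m, Cxcl10, Ddit3, Ldhb, Luzp2, Mmp11, Ndufs5, Pkm, Rnf182, Shmt2, Stard4 and Tpi1. Lost in fewer were those of Col16a1, Col2a1, Egr2, Eno1, Ier3, Ifit1, Igfbp5, Klf4, Nfkbiz, Nkain4, Phgdh and Plin3. No paired analysis was possible because the groups compared share no replicate number in the labels. Depth limits low genes: Casp4 and Ifit1 rest on 1 Cre read each.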

Other observations

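Genes of cytokine signalling outside the lists, picked after their values were seen, rose as well. Osmr, the oncostatin M receptor, stood at 239.9, 115, 157 and 151 normalized counts in the Cre libraries and 534, 712 and 553 in the Kansl2 libraries. The groups did not overlap (1.89 ± 0.24 (SE, adjusted p = 0.00102) by limma). Stat3, the transcription factor it activates, stood at 610.3, 586.3, 534 and 585.97 against 981, 1570 and 1440 (1.17 ± 0.17 (SE, adjusted p = 0.00157)), and Stat5a (1.69 ± 0.36 (SE, adjusted p = 0.0267)) and Jak3 (1.68 ± 0.42 (SE, adjusted p = 0.0496)) also rose. Osmr was higher in Kansl2 than in Mof by 1.61 ± 0.29 (SE, adjusted p = 0.004) by edgeR. Stat3 was higher in Kansl2 than in Kansl3 by 0.78 ± 0.19 (SE, adjusted p = 0.0156) and than in Mof by 0.93 ± 0.21 (SE, adjusted p = 0.0178). Cp, the acute phase protein ceruloplasmin, stood at 56.2, 61.2, 68.9 and 62.3 against 182, 184.2 and 159 (1.48 ± 0.27 (SE, adjusted p = 0.0122)). It was lower in Kansl2 than in Kansl3, by -1.10 ± 0.34 (SE, adjusted p = 0.043).

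The following genes were also picked from those that passed, after their values were seen, and belong to no list. Ccnl1 and Ccnl2, cyclins of splicing factor kinases, rose by 0.71 ± 0.12 (SE, adjusted p = 0.00468) and 0.67 ± 0.13 (SE, adjusted p = 0.0198). Srsf7, a splicing factor, stood at 1241, 1201, 1227 and 1067 against 1939, 1780 and 1638 (0.59 ± 0.12 (SE, adjusted p = 0.0242)), and Clk1, the kinase of such factors, at 1098, 1071, 881 and 1158 against 1656, 1508 and 1502 (0.57 ± 0.13 (SE, adjusted p = 0.0392)). Ythdc1, a nuclear reader of methylated RNA, rose by 0.77 ± 0.15 (SE, adjusted p = 0.0179). Clu, which encodes clusterin, fell and stood at 232, 179, 157 and 311 against 51.3, 35.8 and 32.9 (-2.41 ± 0.31 (SE, adjusted p = 0.0011)), Ttyh1 at 530.3, 450.3, 707 and 792 against 99.3, 201 and 184.5 (-1.96 ± 0.26 (SE, adjusted p = 0.0011)), and Sox9, a transcription factor of glia, at 835, 716, 1230 and 1119 against 521, 429 and 478 (-1.004 ± 0.19 (SE, adjusted p = 0.0132)).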
